A study of Mus musculus with 7 samples.

Results

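Purine receptors bind ATP, other nucleotides or adenosine outside the cell, and 15 of the 382 probes of a custom Illumina GoldenGate methylation array belong to them. They were taken as every probe whose symbol begins with P2rx, P2ry or Adora, without P2ry5, whose current name is Lpar6. They comprise 6 ATP-gated channels (P2X), 6 P2Y receptors and 3 adenosine receptors, each with 1 probe. P2rx3, P2ry12, P2ry13 and Adora3 had no probe under these symbols. The table held 7 arrays of genomic DNA from C57BL/6 mice. A2B5_mas and PSA-NCAM_mas carry the tissue label brain, and the titles Met_0, Met_25, Met_50, Met_75 and Met_100 stand for DNA taken here as controls of rising nominal methylation, though the labels give no unit. A2B5 marks glial progenitors and PSA-NCAM, polysialylated NCAM, marks migrating neuroblasts. How these cells were obtained, their brain region, the animals' age and sex and any pooling were not stated in the labels, and each title is 1 array. Values are beta values, the methylated share of a probe's signal, from 0 to 1. An intermediate beta value can stand for part of the cells or part of the alleles, and these cannot be told apart. The 11 probes of neural, glial, microglial, blood and endothelial marker genes on the array measure methylation and not expression, so the cell labels could not be checked with them.

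Extracellular ATP opens P2X channels, which are trimers that pass cations including calcium, and activates P2Y receptors, which couple to G proteins. Enzymes on the cell surface break ATP down to adenosine, which acts on the adenosine receptors. In brain these receptors serve neurons, astrocytes, oligodendrocyte precursors and microglia, and ATP and adenosine are known to act on the proliferation and maturation of neural progenitors. In mammals the promoters of many genes lie in CpG islands, stretches rich in CpG that are mostly unmethylated, whereas CpGs in poorer sequence are more often methylated.

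The brain arrays ranged from unmethylated to largely methylated over the receptors, and both the P2X and the P2Y class held low and higher probes. All 3 adenosine receptor probes lay under 0.08 in both brain arrays. The P2X probes spanned 0.129 to 0.790 in A2B5_mas and 0.110 to 0.772 in PSA-NCAM_mas, with medians of 0.391 and 0.337. The P2Y probes spanned 0.0470 to 0.812 and 0.0479 to 0.765, with medians of 0.477 and 0.418. This order of the medians was not stable. P2X exceeded P2Y when probes that rose little in the Met series were left out (0.635 and 0.532 for P2X, 0.289 and 0.264 for P2Y), when values were read off each probe's Met curve, and when P2ry5 was counted with the P2Y receptors (0.298 and 0.280). Over the 15 probes the median was 0.266 in A2B5_mas and 0.263 in PSA-NCAM_mas, compared with 0.0992 and 0.0944 over the other 367 probes. These are descriptions of 1 array each, with no test.

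The promoter sequences of 5 members are shown because they set methylated beside unmethylated receptors: P2rx7 and P2rx4 lie next to each other on the chromosome, P2ry4 and P2ry1 are both P2Y receptors coupled to Gq, and Adora2b had the lowest mean brain value of the 15 members. Each is the RefSeq window on GRCm38.p6 from 250 bases before to 50 bases after the gene's start, read 5′ to 3′ on the gene's strand, with every CG in capitals. P2rx7 lies at chr5:122643677-122643976 on the plus strand with 8 CG, P2rx4 at chr5:122707294-122707593 on the plus strand with 18, P2ry4 at chrX:100594820-100595119 on the minus strand with 4, P2ry1 at chr3:61002535-61002834 on the plus strand with 25, and Adora2b at chr11:62248734-62249033 on the plus strand with 27. The position of the CpG that each probe reads is not stated in the table or labels, so it may lie outside these windows.
P2rx7: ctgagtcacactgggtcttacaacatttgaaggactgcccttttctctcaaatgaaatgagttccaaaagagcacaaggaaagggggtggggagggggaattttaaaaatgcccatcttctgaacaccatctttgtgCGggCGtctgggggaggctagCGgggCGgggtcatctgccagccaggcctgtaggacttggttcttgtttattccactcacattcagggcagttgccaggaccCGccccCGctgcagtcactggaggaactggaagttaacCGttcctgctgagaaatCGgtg
P2rx4: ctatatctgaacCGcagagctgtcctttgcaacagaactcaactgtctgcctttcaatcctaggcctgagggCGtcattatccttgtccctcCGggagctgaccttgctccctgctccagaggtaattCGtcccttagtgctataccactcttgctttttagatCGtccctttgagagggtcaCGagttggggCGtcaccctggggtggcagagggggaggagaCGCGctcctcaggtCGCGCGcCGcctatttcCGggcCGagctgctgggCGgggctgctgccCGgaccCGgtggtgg
P2ry4: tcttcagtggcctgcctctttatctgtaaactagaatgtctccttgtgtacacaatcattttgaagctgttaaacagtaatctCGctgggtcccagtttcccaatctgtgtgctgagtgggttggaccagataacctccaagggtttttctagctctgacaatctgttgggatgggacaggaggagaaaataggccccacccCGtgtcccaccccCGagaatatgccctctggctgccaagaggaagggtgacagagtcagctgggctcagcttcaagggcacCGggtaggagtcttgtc
P2ry1: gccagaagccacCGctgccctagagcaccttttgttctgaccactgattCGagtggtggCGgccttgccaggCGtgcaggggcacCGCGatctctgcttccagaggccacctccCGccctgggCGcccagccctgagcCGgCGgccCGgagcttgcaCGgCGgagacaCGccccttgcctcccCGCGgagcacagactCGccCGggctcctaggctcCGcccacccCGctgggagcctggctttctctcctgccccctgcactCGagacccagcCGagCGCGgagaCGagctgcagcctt
Adora2b: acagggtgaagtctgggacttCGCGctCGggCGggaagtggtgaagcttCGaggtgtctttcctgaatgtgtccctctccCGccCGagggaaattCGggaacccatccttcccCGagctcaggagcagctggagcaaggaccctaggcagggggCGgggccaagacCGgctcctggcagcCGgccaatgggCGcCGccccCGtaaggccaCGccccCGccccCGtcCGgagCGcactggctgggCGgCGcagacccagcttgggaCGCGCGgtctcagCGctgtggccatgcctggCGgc

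Of the 15 members, 11 had a window in the RefSeq promoter table, and P2rx2, P2rx5, P2ry6 and Adora2a had none. A window was called CpG-rich when its G and C made up at least 50% of it and its observed over expected CpG was at least 0.6. The letters CG read the same on both strands. Of all 32851 windows of 300 bases in the table, 94.6% held at least 1 CG and 33.5% were CpG-rich. The CpG-rich members were P2ry2, Adora1, Adora2b, P2ry1 and P2rx4, with observed over expected CpG from 0.659 (P2rx4) to 0.826 (P2ry2). Their beta values ran from 0.0441 to 0.153 in A2B5_mas and from 0.0478 to 0.146 in PSA-NCAM_mas, and all 5 were under 0.2 in both. The 6 others, P2rx7, P2rx1, P2ry10, P2ry14, P2ry4 and P2rx6, had 0.152 (P2rx6) to 0.380 (P2rx7). Their beta values ran from 0.129 to 0.754 in A2B5_mas and from 0.110 to 0.705 in PSA-NCAM_mas, with P2rx6 alone under 0.2. Among the other array genes with a window, 110 of the 141 CpG-rich ones (78.0%) and 70 of the 132 not CpG-rich (53.0%) were under 0.2 in both brain arrays. Across the 11 members, which share the same arrays, observed over expected CpG and the mean brain value had a Spearman rho of -0.66 and a Pearson r of -0.72, against -0.36 and -0.38 across the other 273 genes. P2ry6 and P2rx5, the members with the highest mean brain values, had no window and are not in these coefficients. Whether the coefficients of members and other genes differ was not tested. In Met_0, which is not a brain array, the CpG-rich members had a median of 0.115 and the others 0.260, while the other array genes had 0.132 when CpG-rich and 0.126 when not.

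**Figure D1:**
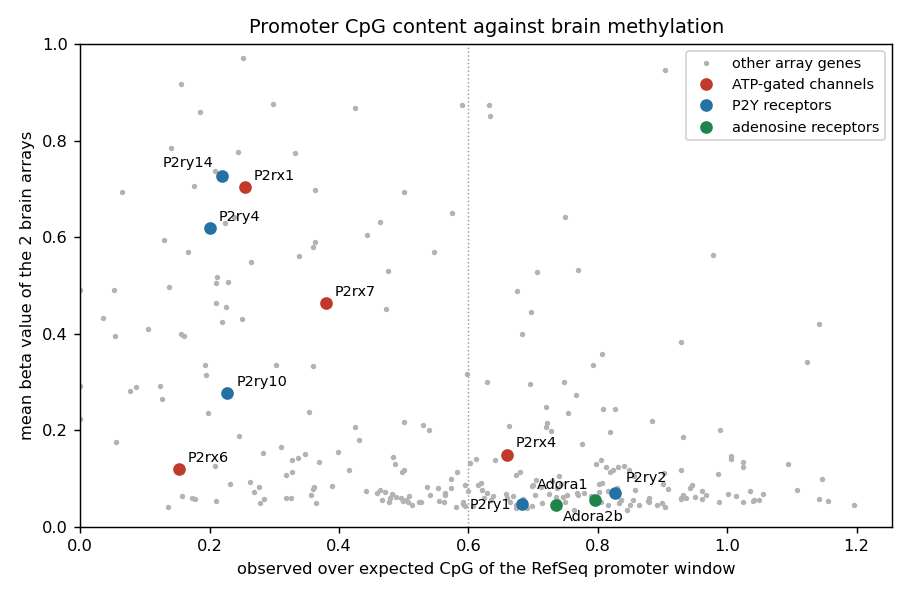
Observed over expected CpG of the promoter window (horizontal axis, no unit) against the mean beta value of the 2 brain arrays (vertical axis), for 11 purine receptors in colour and 273 other array genes in grey. The dotted line marks 0.6. The 5 receptors to its right all lie under 0.2, and to its left only P2rx6 does.

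Among the ATP-gated channels, 3 were above 0.4 in both brain arrays. P2rx5, a channel subunit, had 0.790 in A2B5_mas and 0.772 in PSA-NCAM_mas, compared with 0.515, 0.729, 0.762, 0.801 and 0.912 from Met_0 to Met_100. P2rx1, the channel of platelets and smooth muscle, had 0.754 in A2B5_mas and 0.653 in PSA-NCAM_mas, compared with 0.299, 0.341, 0.385, 0.481 and 0.814. Its brain values lay above Met_75 in both arrays, which held for no other P2X probe. P2rx7, the channel of macrophages and microglia that opens at high ATP and drives inflammasome activation, had 0.516 in A2B5_mas and 0.412 in PSA-NCAM_mas, compared with 0.0951, 0.406, 0.504, 0.610 and 0.750.

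The other P2X probes were lower in brain than in Met_0. So were 228 of all 382 probes in A2B5_mas and 232 in PSA-NCAM_mas, with median differences of -0.0164 and -0.0170 over all probes. P2rx4, a channel of microglia, neurons and epithelia, had 0.153 in A2B5_mas and 0.146 in PSA-NCAM_mas, compared with 0.165, 0.445, 0.505, 0.584 and 0.658 from Met_0 to Met_100. P2rx6, a subunit that works mainly together with other P2X subunits, had 0.129 and 0.110 in the same brain arrays, against 0.187, 0.348, 0.482, 0.484 and 0.480. Both lay under Met_0 in both brain arrays, P2rx4 by differences of -0.0116 in A2B5_mas and -0.0184 in PSA-NCAM_mas, and P2rx6 by -0.0574 and -0.0766. The P2rx4 differences were smaller than the SD of 0.0326 between arrays given below, so their sign is not read as a difference from Met_0. P2rx2, a channel of sensory neurons and of the cochlea, had 0.266 in A2B5_mas and 0.263 in PSA-NCAM_mas, compared with 0.687, 0.909, 0.915, 0.895 and 0.913. It was the one member whose Met_0 value exceeded both brain values by more than 0.1, so Met_0 is not a floor for this probe.

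Among the Gq-coupled P2Y receptors, which raise intracellular calcium through phospholipase C, P2ry1 and P2ry2 were unmethylated in brain. P2ry1, the ADP receptor of neurons, astrocytes and platelets, had 0.0470 in A2B5_mas and 0.0479 in PSA-NCAM_mas, compared with 0.0623, 0.625, 0.668, 0.725 and 0.856 from Met_0 to Met_100. P2ry2, which responds to ATP and UTP, had 0.0712 and 0.0703 in the same brain arrays, against 0.115, 0.495, 0.564, 0.656 and 0.854. P2ry4 and P2ry6 stood on the other side. P2ry4, a UTP receptor that in rodents also responds to ATP, had 0.666 in A2B5_mas and 0.573 in PSA-NCAM_mas, compared with 0.253, 0.498, 0.591, 0.633 and 0.730. P2ry6, the UDP receptor known for microglial phagocytosis, had 0.812 and 0.765, against 0.431, 0.793, 0.859, 0.885 and 0.909. It was the only member over 0.8 in a brain array.

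The remaining P2Y probes were both intermediate in brain. P2ry14, the Gi-coupled receptor of UDP-glucose, had 0.747 in A2B5_mas and 0.705 in PSA-NCAM_mas, compared with 0.626, 0.667, 0.749, 0.799 and 0.904 from Met_0 to Met_100. P2ry10, a lysophosphatidylserine receptor of lymphocytes that keeps a P2Y name, had 0.289 and 0.264, against 0.268, 0.609, 0.645, 0.664 and 0.795. Its brain values straddled Met_0. P2ry4 and P2ry10 lie on the X chromosome, and the sex of the animals is not stated.

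The adenosine receptors were uniformly low. Adora1, the Gi-coupled A1 receptor that dampens transmitter release, had 0.0516 in A2B5_mas and 0.0585 in PSA-NCAM_mas, compared with 0.0552, 0.497, 0.516, 0.643 and 0.892 from Met_0 to Met_100. Adora2a, the Gs-coupled receptor that is abundant in striatum, had 0.0668 and 0.0710, against 0.164, 0.475, 0.506, 0.588 and 0.671. Adora2b, the Gs-coupled receptor of lower affinity, had 0.0441 and 0.0478, against 0.137, 0.377, 0.482, 0.506 and 0.775. In both brain arrays the A2 probes lay under Met_0, while Adora1 differed from it by -0.00365 in A2B5_mas and 0.00327 in PSA-NCAM_mas. Of all 382 probes, 228 lay under Met_0 in A2B5_mas and 232 in PSA-NCAM_mas.

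**Figure D2:**
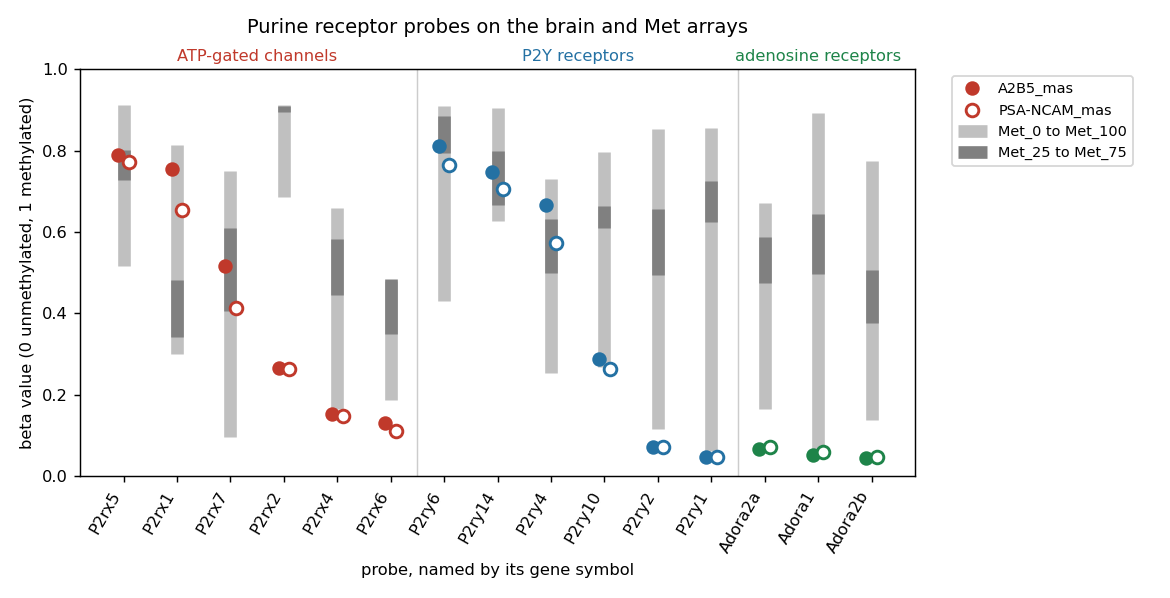
Beta value (vertical axis, 0 to 1) of each purine receptor probe in A2B5_mas (filled circles) and PSA-NCAM_mas (open circles), 1 array each, with bars from Met_0 to Met_100 (light) and from Met_25 to Met_75 (dark). The adenosine probes lie under 0.08 in both brain arrays, while P2X and P2Y probes reach 0.790 and 0.812.

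Ordered by the mean of both brain arrays, the probes ran from P2ry6 (0.789), P2rx5 (0.781), P2ry14 (0.726), P2rx1 (0.703), P2ry4 (0.619) and P2rx7 (0.464) through P2ry10 (0.276), P2rx2 (0.264), P2rx4 (0.150) and P2rx6 (0.120) to P2ry2 (0.0707), Adora2a (0.0689), Adora1 (0.0550), P2ry1 (0.0474) and Adora2b (0.0459). The only gauge of array error was how far Met_50 lay from the midpoint of Met_25 and Met_75. It gave an SD of 0.0326 for a difference between arrays over the responsive probes of the table, defined below by their rise in the Met series, and holds any bend of a probe's own curve too. Of the 14 gaps between neighbours in the order, 6 exceeded that SD, and the gaps among the 5 lowest probes were all under it. The SD is for a difference between arrays at the same probe, while each gap lies between different probes averaged over both brain arrays. It therefore cannot decide which receptors are separated, and the count only describes the size of the gaps. The widest gap, 0.188, lay between P2rx7 and P2ry10. Probes differ in their Met curves, so the order is one of beta values and not of methylation corrected for each probe.

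The 6 probes above that gap had at least 0.4 in both brain arrays, a limit chosen after the values were seen. They made up 40.0% of the members, while 19.3% of the other 367 probes reached 0.4 in A2B5_mas and 16.9% in PSA-NCAM_mas. In Met_0, 4 of the 15 members (26.7%) and 10.9% of the other probes did so. With limits of under 0.2 for low and over 0.8 for high, 7 of the 15 were low in A2B5_mas and 7 in PSA-NCAM_mas (46.7% each), against 67.0% and 70.3% of the other probes. Ionotropic glutamate receptor subunits, with 18 probes, had medians of 0.0770 in A2B5_mas and 0.0816 in PSA-NCAM_mas, and the 20 GABA and glycine receptor subunits had 0.119 and 0.107. The 8 acetylcholine receptors had 0.455 and 0.435. The purine receptors, with 0.266 and 0.263, thus lay between these groups, and none of these differences was tested. Both purine medians are the values of the P2rx2 probe, which had 0.687 in Met_0 and lies between the low and the higher members.

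Receptor genes that lie next to each other were not alike. P2rx7 and P2rx4, which have 0 protein-coding genes between them in the RefSeq table of GRCm38.p6, had 0.516 against 0.153 in A2B5_mas and 0.412 against 0.146 in PSA-NCAM_mas. P2ry6 and P2ry2, also direct neighbours, had 0.812 against 0.0712 and 0.765 against 0.0703. P2rx5 and P2rx1, with 4 genes between them, were both above 0.65 in the brain arrays.

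By the root mean square difference over all 7 arrays, the non-member probe most like P2rx5 and also most like P2ry6 was that of Bdkrb1, the bradykinin B1 receptor, at 0.0326 and 0.0462. Bdkrb1 had 0.826 in A2B5_mas and 0.767 in PSA-NCAM_mas. For the other members at the ends of their classes, the nearest probe was Afg3l2 for P2ry1 at 0.0103, Col11a2 for Adora2a at 0.0250, Grik2 for Adora2b at 0.0367 and Myo7a for P2rx6 at 0.0425.

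The Met series asks whether a probe reports rising methylation at all. The slope of the beta value on the title number, over the full range from Met_0 to Met_100, was tested for each of the 382 probes over all 120 orders of the 5 arrays. Of the 15 members, 13 rose, each at 4 of 4 steps, by an exact permutation test (two-sided p = 0.0167, the least that 5 arrays can give) and a Benjamini-Hochberg adjusted p = 0.0206. By the same rule 87.7% of all probes were called rising, so the members' share was near the background. Their slopes ran from 0.275 ± 0.0234 for P2ry14 to 0.728 ± 0.144 for Adora1 (SE of the line, n = 5 arrays). P2rx6 and P2rx2 did not pass, with slopes of 0.289 ± 0.0925 (exact permutation adjusted p = 0.0719) and 0.175 ± 0.104 (exact permutation adjusted p = 0.246), and each was higher at 3 of 4 steps. Whether the Met arrays were mixed from the same DNAs is not stated, and the tests treat them as separate samples.

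How far the probes rose also varied within the classes. With a rise of at least 0.3 between Met_0 and Met_100 counted as responsive, 4 of 6 P2X, 5 of 6 P2Y and 3 of 3 adenosine probes were responsive, 12 of 15, against 86.6% of all probes. The 3 others were P2rx6, just under the limit with 0.294, P2ry14 with 0.278 and P2rx2 with 0.226, while the responsive member nearest to the limit was P2rx5 with 0.396. P2rx2 and P2ry14 began high in Met_0, and P2rx6 stopped at 0.480 in Met_100. The median slope was 0.398 over the P2X, 0.440 over the P2Y and 0.562 over the adenosine probes, against 0.536 over all 382.

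The rise was uneven over the series. The share of the rise reached by Met_25 had a median of 53.9% over the 15 members and 59.3% over all probes. P2rx1 and P2rx2 were the extremes. P2rx1 had covered 8.22% of its rise by Met_25 and gained most of it between Met_75 and Met_100. P2rx2 had covered 98.3% by Met_25 and was flat from there, so its beta value could not tell the upper Met arrays apart.

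**Figure D3:**
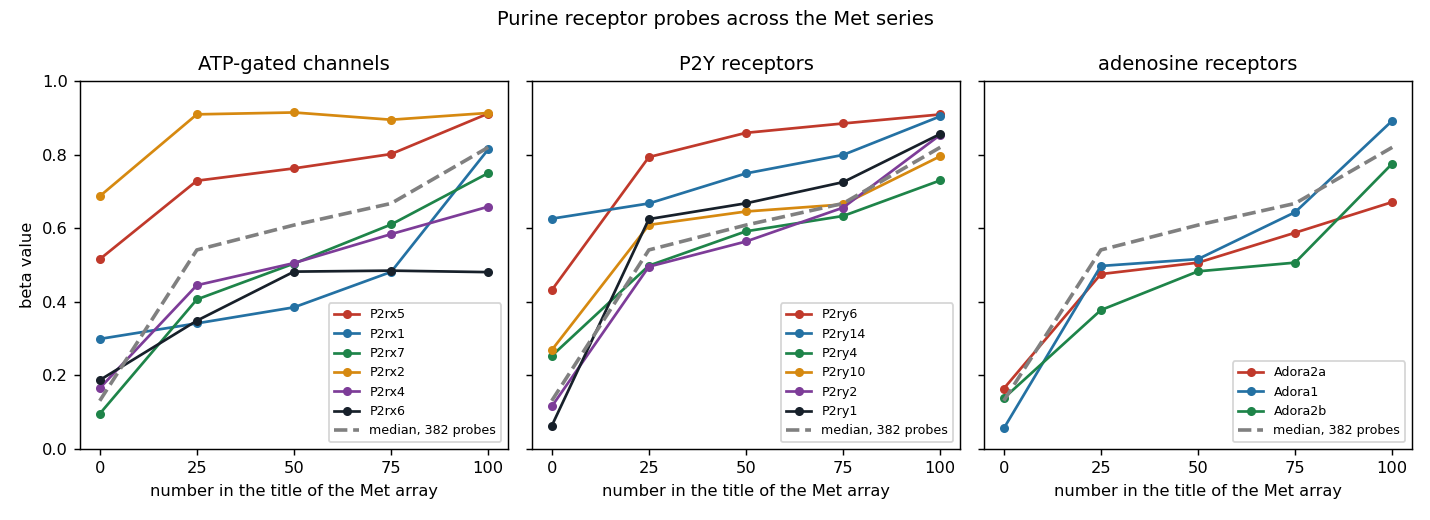
Beta value (vertical axis) against the number in the title of the Met array (horizontal axis, read as nominal percent) for the P2X, P2Y and adenosine receptor probes, 1 array per point, with the median of all 382 probes dashed. P2rx2 is near 0.91 from Met_25 on, P2rx1 stays under 0.5 up to Met_75, and P2rx6 ends at 0.480.

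Set against the Met_0 array, the members at least 0.1 higher were all among those with at least 0.4 in brain. That group was picked by the same brain values that enter the difference, so this is no separate result. The A2B5_mas and PSA-NCAM_mas differences share the same Met_0 array and are given side by side, with no test. At least 0.1 higher were 6 of 15 members in A2B5_mas, against 23.0% of all probes, and 5 of 15 in PSA-NCAM_mas, against 21.5%. The differences were 0.455 in A2B5_mas and 0.354 in PSA-NCAM_mas for P2rx1, 0.421 and 0.317 for P2rx7, 0.413 and 0.320 for P2ry4, 0.381 and 0.334 for P2ry6, and 0.275 and 0.257 for P2rx5. P2ry14 passed only in A2B5_mas, with 0.121 against 0.0794. At least 0.1 lower was only P2rx2, at -0.421 in A2B5_mas, where 18.6% of all probes were, and at -0.424 in PSA-NCAM_mas, where 19.6% were. Adora2a and Adora2b were just short of it, at -0.0967 and -0.0933 in A2B5_mas and -0.0926 and -0.0896 in PSA-NCAM_mas.

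A2B5_mas, titled after a marker of glial progenitors, was then set against PSA-NCAM_mas, titled after one of neuroblasts. The differences were small beside those between receptors. With 0.05 as the limit, 3 of 15 members were higher in A2B5_mas, against 12% of all probes, and 0 were lower, against 0.785%. They were P2rx7, with a difference of 0.104, P2rx1 with 0.101 and P2ry4 with 0.0926. The SD of 0.0326 from the Met arrays holds no variation between samples, so these differences could not be set against a sample spread. After quantile normalization of the 2 arrays these became 0.0406, 0.0596 and 0.0401, so P2rx1 alone stayed past 0.05. Just short of the limit were P2ry6 with 0.0469 and P2ry14 with 0.0415.

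By class, all 6 P2X probes were higher in A2B5_mas, by 0.00286 (P2rx2) to 0.104, and 5 of 6 P2Y probes, with a difference of -0.000871 for P2ry1. All 3 adenosine probes were lower in A2B5_mas, by 0.00692 for Adora1, 0.00419 for Adora2a and 0.00365 for Adora2b. These adenosine differences were under the SD of 0.0326 from the Met arrays. So were those of P2rx2, P2rx4, P2rx5, P2rx6, P2ry1, P2ry2 and P2ry10. The signs at all these probes are therefore not read as differences between the arrays, nor as a direction of the P2X class. A2B5_mas was the higher array at 65.2% of all probes, and the median difference over the table was 0.00429. Differences past 0.05 were common at intermediate levels: of the 62 probes with a mean brain value from 0.4 to 0.8, 61.3% were at least 0.05 higher in A2B5_mas. The 6 members in that range, 3 of them past 0.05, had a median difference of 0.0697, and the other 56 probes had 0.0593. The part of a shift common to such levels in the members' differences was not tested.

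**Figure D4:**
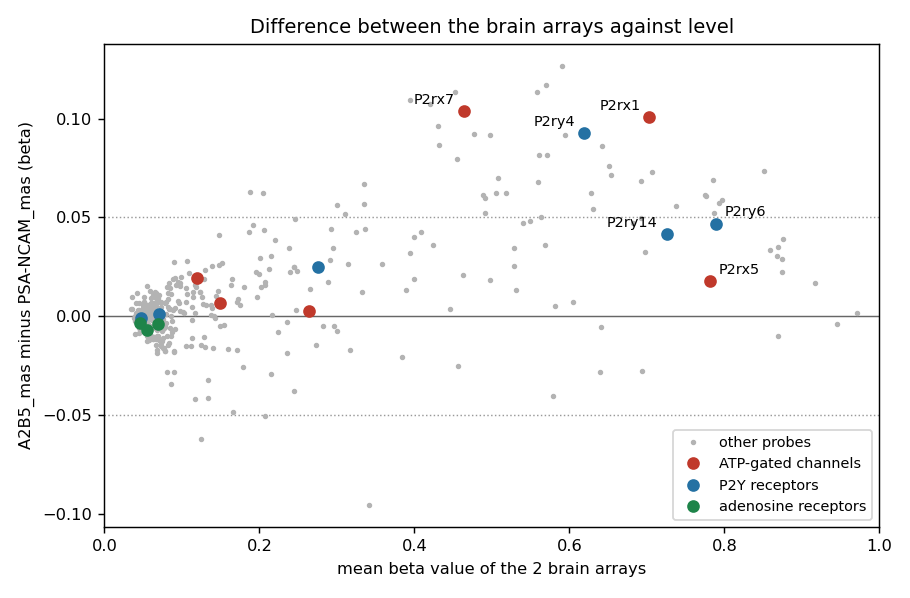
A2B5_mas minus PSA-NCAM_mas (vertical axis, beta value) against the mean of both arrays (horizontal axis) for the purine receptor probes in colour and the other 367 probes in grey, 1 array each. Dotted lines mark 0.05 in each direction. P2rx7, P2rx1 and P2ry4 lie past the upper line among many other probes of intermediate level.

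Read off each probe's own Met curve, the methylated receptors spread differently. P2rx1 stood at 95.5 in A2B5_mas and 87.9 in PSA-NCAM_mas in units of the title numbers, P2ry4 at 83.4 and 45.1, P2rx5 at 67.7 and 56.4, and P2rx7 at 52.9 and 26.5. P2ry14 stood at 49.3 and 36.6 and P2ry6, the highest by beta value, at only 32.1 and 23.1, because its curve had reached 0.793 by Met_25. P2ry4 and P2rx7 were at least 20 points higher in A2B5_mas, as were 2.88% of all probes. Where a Met curve is shallow, a small difference in beta value spans many points. The P2ry4 curve rose only from 0.591 in Met_50 to 0.633 in Met_75, and its difference in beta value was 0.0926. No error was estimated on this scale. Of the other 9 members, 7 read 0 in both arrays, as did 215 of all 382 probes. P2ry10 read 1.48 in A2B5_mas and Adora1 0.185 in PSA-NCAM_mas. Any value at or under the start of a Met curve reads 0. This holds for P2rx2 too, with 0.266 in A2B5_mas and 0.263 in PSA-NCAM_mas against 0.687 in Met_0.

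Of the other genes of purine signalling, 0 of the 26 listed enzymes, transporters and release channels that make, break down or carry extracellular purines were on the array. Of 31 listed G proteins, cyclases and downstream effectors only Adcy9, an adenylyl cyclase through which Gs-coupled receptors raise cyclic AMP, was present. It had 0.208 in A2B5_mas and 0.165 in PSA-NCAM_mas, compared with 0.452 in Met_0 and 0.887 in Met_100.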

How the data were processed

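DNA methylation was measured on 7 custom GoldenGate arrays, from phenol-extracted DNA labelled by Illumina's protocol, per the labels' protocols. The authors deposited 382 probes by 7 arrays, taken as methylation fractions (beta values) since all lay between 0.0282 and 0.972 with 0 missing. Software, background correction, scaling between arrays and the genome build are not stated in the labels or the table, and uncorrected background or a rescaling of arrays could move the values. The number of arrays, 1 per title, limits precision, and sequencing depth does not apply.

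Arrays were grouped by title. Only Met slopes were tested, by exact permutation with Benjamini-Hochberg adjustment over all probes, called at 0.05. All else is described by fixed sizes. Met curves were made monotone by isotonic regression. For genes with several promoter windows the first was used. All 15 symbols were current in RefSeq. Members, lists and sizes were chosen with earlier results of these data known. Every member was named, with the nearest non-member probe of the highest and the lowest member of each class. Alternatives covered sizes, scales, centring, quantile normalization and arrays left out. The slope test was run on simulated straight and flat lines with low noise, which is no check of it on bent Met curves like these. Python 3.11.15, numpy 2.4.6, pandas 2.3.3, scikit-learn 1.9.0 and matplotlib 3.10.9 were used.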

Additional observations from a re-analysis of the deposited data

How the results depend on the processing

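Over 22 results, 48 of 83 alternative values stayed within a factor of 1.5 for counts or the array SD for levels (the median SE for slopes), and 35 did not. A reversal of sign was looked for only in the A2B5_mas minus PSA-NCAM_mas differences of P2rx1, P2rx7 and P2ry4, and 0 were found. Changes in the order of the class medians, given below, were not counted as reversals. The 13 members called rising in the Met series remained 13 on the log2(value / (1 - value)) scale and by rank correlation. Both settings keep the order of the arrays, so the permutation p of a probe that rose at every step could not change. Their result is therefore no check of these 13. The median slope over all 15 members, 0.451, ran from 0.295 (without Met_0) to 0.4997 (without Met_25) when each Met array was left out. With limits of 0.3 and 0.7, members high were 4 in A2B5_mas and 3 in PSA-NCAM_mas, and on the Met curve scale 2 and 1, against 1 and 0. Class medians are given for A2B5_mas and then PSA-NCAM_mas. On the Met curve scale, from 0 to 1, they were 0.264 and 0.132 for P2X, 0.168 and 0.115 for P2Y and 0 and 0 for adenosine receptors. With responsive probes only they were 0.635 and 0.532 for P2X and 0.289 and 0.264 for P2Y, and under both of these settings P2X exceeded P2Y in both arrays, the opposite of the main order. Means were 0.435 and 0.393 for P2X, and 0.439 in A2B5_mas for P2Y. Added after seeing the data, the P2Y medians were 0.409 and 0.388 without the X-linked P2ry4 and P2ry10 and 0.298 and 0.280 with P2ry5 (then below P2X). The 3 members higher in A2B5_mas than in PSA-NCAM_mas became 5 at a size of 0.03, 0 at 0.2, 1 after quantile normalization and 6 on the Met curve scale. The 1 member lower than Met_0 became 4 in each brain array at a size of 0.05 and 2 in each after quantile normalization. Each brain title had a single array, which could not be left out, and the cause of these changes was not tested.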
